A study of Mus musculus with 7 samples.

Results

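The genes described here are those of the interleukin-11, leukaemia inhibitory factor and gp130 cytokine axis: the ligand genes Il11, Lif, Il6 and Clcf1, the receptor genes Il11ra1, Il6st, Lifr, Il6ra and Osmr, and the feedback inhibitor gene Socs3. They were taken by gene name, 10 of the 52459 gene names in the count table, and 9 of the 10 were among the 13367 genes with enough counts to be tested. Il6 had no read in any library and was not tested. Expression was measured by bulk RNA sequencing of total RNA from primary mouse articular chondrocytes of the femoral head, grown in medium with fetal bovine serum. The cells were treated for 24 h with vehicle (2 libraries, replicates 1 and 2), with TGFβ1 at 5 ng/ml (2 libraries, replicates 1 and 3) or with BMP2 at 100 ng/ml (3 libraries, replicates 1, 2 and 3). No allele or transgene is named for any group, and the labels used here name neither the age nor the strain of the mice. The labels do not say whether replicates were separate animals or cultures, so each p-value measures the spread between these libraries, which may be technical.

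The cytokines of this family bind a receptor of their own and then the shared signalling chain gp130, the product of Il6st. IL-11 uses the IL-11 receptor alpha chain with a pair of gp130 chains, whereas LIF uses gp130 together with the LIF receptor. Cardiotrophin-like cytokine factor 1 (Clcf1) uses gp130, the LIF receptor and also the CNTF receptor alpha chain (Cntfr). Oncostatin M uses gp130 with its own receptor Osmr. The bound complex activates JAK kinases, which phosphorylate STAT3, and STAT3 raises transcription of Socs3, whose product binds gp130 and dampens the signal. TGFβ1 and BMP2 are ligands of another family that signal mainly through SMAD proteins. IL-11 is a known target of TGFβ in connective tissue cells, and LIF and oncostatin M are known for their action on cartilage matrix turnover.

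The promoter windows of the genes that the results turn on are printed here because Il11, Lif and Socs3 were higher with TGFβ1 while Il6 had no reads. Each window is 300 bases long, from 250 bases before the annotated start to 50 from it on, 5′ to 3′ on the strand of the gene, from RefSeq with the GRCm38.p6 build. Both strands were searched for TGANTCA (the AP-1 site), CAGAC (a SMAD box), TGACG (a cyclic AMP half-site) and TTCNNNGAA (a STAT site), and matches are in capitals.
Il11, upstream start, chr7:4782808-4783107, minus strand: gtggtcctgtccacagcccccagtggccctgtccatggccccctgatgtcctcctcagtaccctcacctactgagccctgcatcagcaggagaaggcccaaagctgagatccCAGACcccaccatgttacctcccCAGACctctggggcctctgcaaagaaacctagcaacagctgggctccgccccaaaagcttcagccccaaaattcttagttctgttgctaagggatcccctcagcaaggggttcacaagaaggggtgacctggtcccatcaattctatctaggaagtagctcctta
Il11, downstream start, chr7:4778092-4778391, minus strand: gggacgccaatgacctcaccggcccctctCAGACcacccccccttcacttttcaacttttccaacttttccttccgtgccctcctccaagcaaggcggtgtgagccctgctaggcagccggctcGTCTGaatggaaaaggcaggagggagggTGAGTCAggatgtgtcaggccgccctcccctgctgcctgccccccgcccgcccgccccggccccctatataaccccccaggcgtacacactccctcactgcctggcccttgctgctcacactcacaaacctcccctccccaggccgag
Lif, chr11:4257318-4257617, plus strand: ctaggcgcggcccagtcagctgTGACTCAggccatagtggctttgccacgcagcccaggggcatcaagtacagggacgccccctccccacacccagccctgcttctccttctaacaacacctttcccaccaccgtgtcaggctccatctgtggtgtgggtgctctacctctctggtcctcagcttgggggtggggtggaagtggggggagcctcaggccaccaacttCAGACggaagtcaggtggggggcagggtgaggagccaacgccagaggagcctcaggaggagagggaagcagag
Socs3, chr11:117969317-117969616, minus strand: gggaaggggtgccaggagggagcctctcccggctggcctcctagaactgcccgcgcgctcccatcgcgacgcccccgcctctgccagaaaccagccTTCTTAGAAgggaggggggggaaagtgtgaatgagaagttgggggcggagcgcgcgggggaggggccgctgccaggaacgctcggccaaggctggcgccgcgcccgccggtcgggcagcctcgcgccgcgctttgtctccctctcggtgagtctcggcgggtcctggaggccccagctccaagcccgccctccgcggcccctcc
Il6, chr5:30012864-30013163, plus strand: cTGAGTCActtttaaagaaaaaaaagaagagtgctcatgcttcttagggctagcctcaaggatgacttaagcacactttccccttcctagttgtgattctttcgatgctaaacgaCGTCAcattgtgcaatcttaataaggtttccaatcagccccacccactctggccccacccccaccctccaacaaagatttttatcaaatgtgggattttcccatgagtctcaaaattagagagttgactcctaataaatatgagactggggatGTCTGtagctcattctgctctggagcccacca

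The AP-1 letters stood in the downstream Il11 window, with the first base at -98 when the start is counted as 0, and in the Lif window at -228. They were also in the Il6 window at -249 and in the Osmr window at 3. Of all 32851 promoter windows of this length in the table, 7.81% held that motif. The SMAD box, found in 49.6% of all windows, occurred at -138 and -115 in the upstream Il11 window, at -221 and -126 in the downstream one, at -23 in Lif and at 18 in Il6. It was also in receptor gene windows, at -94 for the upstream Il11ra1 start, at -4 and -219 for Lifr and at 45 for Osmr. The Socs3 window held a STAT site, ttcttagaa, from -154 to -146, a motif present in 8.3% of windows. The cyclic AMP half-site, a motif of 20.8% of windows, was in the Il6 window at -135 and in the Il6ra window at -236. Neither the Il6st window nor that of the downstream Il11ra1 start held any of the 4 motifs. A match describes the letters only. Windows were given for 9 of the 10 genes.

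The libraries held 6747997 to 18047765 counts, and the TGFβ1 libraries were the deepest. Chondrocyte markers were abundant in every library, with Col2a1, the main cartilage collagen gene, at a mean of 35500 CPM (counts scaled to a common library size) with vehicle, 29600 with TGFβ1 and 30900 with BMP2. The summed level of the 7 chondrocyte markers ranged from 52200 to 52300 CPM with vehicle, 34000 to 40000 with TGFβ1 and 46000 to 52000 with BMP2, and Col2a1 was the largest part. Acan, the aggrecan gene, was at 3460, 1880 and 5370 CPM, Sox9 at 542, 206 and 623, Hapln1 at 1100, 259 and 1480 and Col9a1 at 2120, 628 and 2000 with vehicle, TGFβ1 and BMP2, so these 4 were lowest with TGFβ1. The 7 myeloid markers summed to 21.3 to 29.8 CPM with vehicle, 21.7 to 31.6 with TGFβ1 and 14.7 to 17.9 with BMP2, and the 4 synovial fibroblast markers summed to 9.44 to 20.8 CPM over all libraries. The 4 osteoblast markers summed to 880 to 897 CPM with vehicle, 1560 to 1740 with TGFβ1 and 770 to 856 with BMP2, a sum in which Col1a1 was the largest part (659, 1460 and 630 CPM) while Sp7, an osteoblast transcription factor gene, was at 28.4, 16.3 and 70.2 CPM. Lymphocyte, neutrophil and endothelial markers, 4 of each, summed to at most 0.368, 9.69 and 1.79 CPM in any library, and the 3 osteoclast markers to 88.8 to 141 CPM. Ctsk was the largest part of the osteoclast sum (88.6, 118 and 115 CPM with vehicle, TGFβ1 and BMP2). Acp5 was at 2.81, 4.38 and 1.77 CPM, and Calcr had 0 counts in every group. The part of these cell types in the results below was not tested, and in bulk RNA fewer cells of a type and less RNA per cell cannot be told apart. The TGFβ1 libraries differed from the others along transcript length. Of the 1162 tested genes with a principal transcript of up to 1000 nt, 77.5% were called higher with TGFβ1 than with vehicle, with a median log2 fold change of 2.75, whereas the 2608 genes above 5000 nt had a median of -0.447. In BMP2 against vehicle the same medians were 0.0116 and -0.0563. Whether this trend belongs to the treatment or to the libraries cannot be told apart, so fold changes with TGFβ1 are also given with an offset that removes the trend of length and GC content within each library. The offset rests on the principal transcript of each gene unless the longest transcript is named, and CPM levels carry no such correction.

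TGFβ1 raised 3 of the 9 tested genes (Il11, Lif and Socs3) and lowered 2 (Lifr and Il6st) relative to vehicle. Over all tested genes 56.2% were called in that comparison, 30.4% higher and 25.8% lower, so the number of calls among these genes is near the background and the size of the changes is what follows. With the length offset the 3 rises were called and neither fall was, against 48.7% called over all genes. BMP2 raised 2 of the 9 (Il11 and Clcf1), against 11.5% of all genes called and 5.33% called higher. It lowered 0 of the 9 in the edgeR quasi-likelihood test and 0 in DESeq2, where 6.15% of all genes were lower in edgeR. At an unadjusted p under 0.05 in edgeR, 4 of the 9 were lower, and no share over all genes was taken at that level. With the offset 3 of the 9 were higher with BMP2 (Il11, Clcf1 and Lifr). Of all 13367 genes, 907 were then called higher, and 13.1% were called in either direction. Groups whose CPM ranges do not overlap were common, at 80.1% of all tested genes for TGFβ1 against vehicle, 44.6% for BMP2 against vehicle and 73.7% for BMP2 against TGFβ1. Both comparisons with vehicle share the same 2 vehicle libraries.

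**Figure D1:**
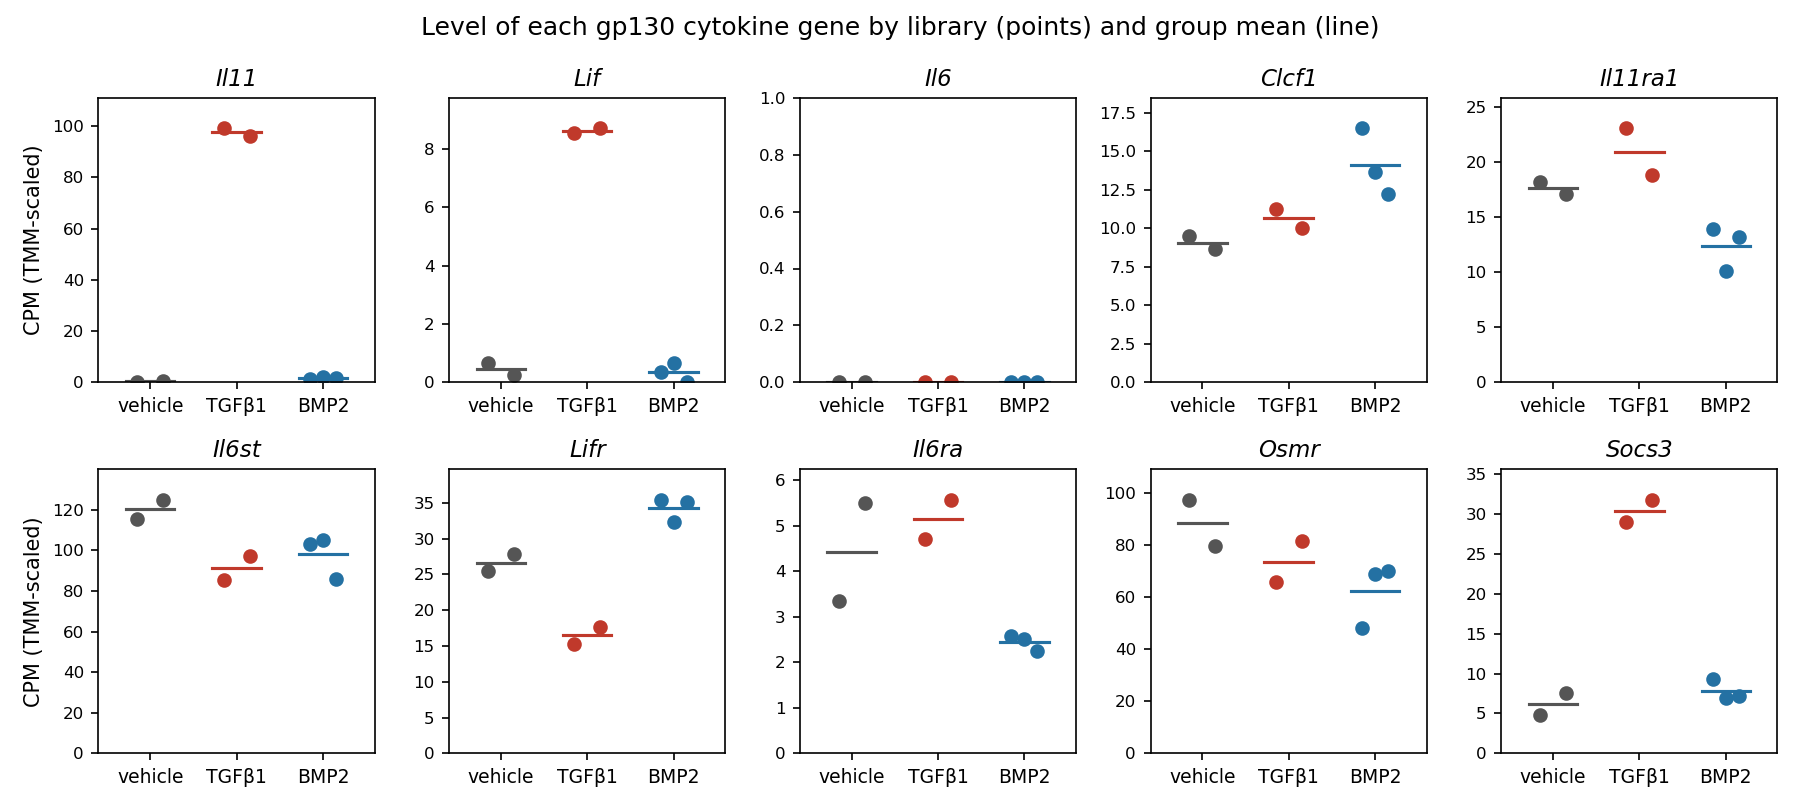
Level of each gene in CPM (scaled by TMM, linear axis from 0) in every library, with points for libraries and a line for the mean of the 2 vehicle, 2 TGFβ1 and 3 BMP2 libraries. Il11, Lif and Socs3 stand well apart in the TGFβ1 libraries, Lifr is lowest there, and Il6 is at 0 throughout.

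Il11 (chr7, 4772373 to 4782859, minus strand, mm10) encodes interleukin-11. Its counts were 1 and 4 with vehicle, 1347 and 1259 with TGFβ1, and 16, 16 and 18 with BMP2, or 0.134 and 0.478, 99.1 and 96.1, and 1.37, 2.12 and 1.69 CPM. The groups did not overlap, the TGFβ1 libraries were far above all others and the BMP2 libraries lay between. TGFβ1 against vehicle gave a log2 fold change of 8.22 (SE 0.28, 95% interval 7.61 to 8.83, edgeR quasi-likelihood test with Benjamini-Hochberg adjustment, adjusted p = 1.07e-08), and 8.04 with the length offset. Because the vehicle level rests on 5 reads, the ratio was also taken from summed counts scaled to library size, which gave 309-fold with a counting interval of 132 to 953. Such intervals cover counting error only.

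BMP2 also raised Il11, by a log2 fold change of 2.37 (SE 0.45, edgeR adjusted p = 0.00727), and by 2.39 with the offset. The summed counts were 50 against 5, a ratio of 5.31 with a counting interval of 2.13 to 17.1. This rise depended on the vehicle library with 1 read: without vehicle replicate 1 it was 1.80 with an edgeR adjusted p of 0.0772, and without any other library it was past the threshold. Il11 was 58.3-fold higher with TGFβ1 than with BMP2 (counting interval 44.1 to 78.7), and the edgeR log2 fold change of BMP2 against TGFβ1 was -5.85 (SE 0.18, adjusted p = 2.09e-09), with -5.66 under the offset.

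Lif (chr11, 4257557 to 4272514, plus strand) encodes leukaemia inhibitory factor. Its counts were 5 and 2 with vehicle, 116 and 114 with TGFβ1, and 4, 5 and 0 with BMP2, which is 0.669 and 0.239, 8.53 and 8.70, and 0.343, 0.663 and 0 CPM. The TGFβ1 libraries stood apart from the rest, while the vehicle and BMP2 libraries overlapped. The rise with TGFβ1 was 4.25 on the log2 scale (SE 0.55, edgeR adjusted p = 8.71e-05) and 4.27 with the length offset, and the ratio of summed counts was 19.5 with a counting interval of 9.31 to 49.0. For BMP2 against vehicle the edgeR log2 fold change was -0.53 with a 95% interval of -2.53 to 1.48 (adjusted p = 0.773), so a difference in either direction was not detectable at this depth. The library at 0 allows a level of up to 0.282 CPM, the level of 3 counts. Lif was 28.6-fold higher with TGFβ1 than with BMP2 (counting interval 14.8 to 63.3, edgeR adjusted p = 9.76e-06), a log2 fold change of BMP2 against TGFβ1 of -4.77, with -4.75 under the offset.

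Clcf1 (chr19, 4214238 to 4223490) encodes a ligand that signals through Cntfr, the LIF receptor and gp130. Clcf1 was at 9.49 and 8.61 CPM with vehicle, 11.3 and 10.0 with TGFβ1, and 16.5, 13.7 and 12.2 with BMP2. The BMP2 libraries were above all others, by a margin smaller than their own spread. BMP2 raised it by 0.65 on the log2 scale (SE 0.18, edgeR adjusted p = 0.0399). That call was lost with DESeq2 (adjusted p = 0.0774) and in edgeR without BMP2 replicate 1 (0.0754), BMP2 replicate 2 (0.0777), vehicle replicate 1 (0.138) or vehicle replicate 2 (0.260). TGFβ1 against vehicle gave 0.23 with a 95% interval of -0.19 to 0.66, and -0.093 with the length offset. Of the exon bases of Clcf1, 8.17% lie in another annotated gene. Il6 (chr5, 30013114 to 30019981), the gene of interleukin-6, had 0 counts in all 7 libraries, which allows up to 0.221 CPM in the deepest TGFβ1 library and up to 0.401 CPM in vehicle replicate 1.

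**Figure D2:**
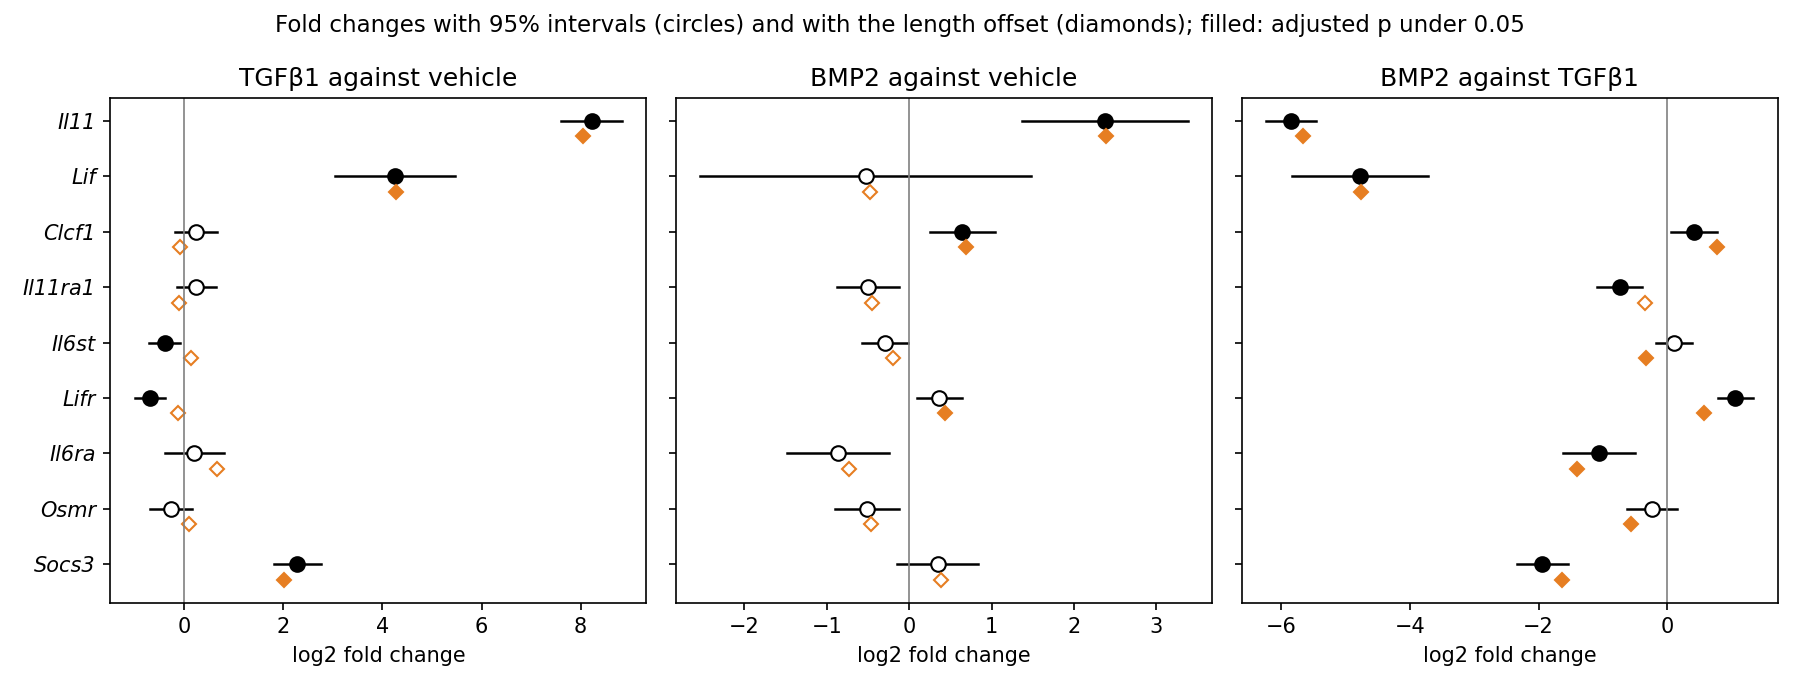
Log2 fold change of the 9 tested genes in each comparison, with circles and 95% intervals from edgeR and diamonds with the length offset, filled where the adjusted p was under 0.05. The horizontal axes differ between the panels. Il11, Lif and Socs3 lie to the right with TGFβ1 under both fits, while the filled circles of Lifr and Il6st have open diamonds near 0.

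Of the 5 receptor genes, TGFβ1 lowered Lifr and Il6st and raised 0 in edgeR, in DESeq2 and at an unadjusted p under 0.05. With the length offset 0 of the 5 were called in either direction. Over all tested genes 25.8% were called lower and 30.4% higher in edgeR, and 48.7% were called with the offset. The median log2 fold change of the 5 receptor genes was -0.265, and 0.105 with the offset, beside -0.02 and -0.03 over all tested genes. Lifr (chr15, 7090614 to 7197489), the LIF receptor, was at 25.4 and 27.9 CPM with vehicle, 15.3 and 17.6 with TGFβ1, and 35.4, 32.3 and 35.1 with BMP2. The 3 groups did not overlap, with TGFβ1 lowest and BMP2 highest. With TGFβ1 it fell by 0.69 on the log2 scale (SE 0.14, edgeR adjusted p = 0.00145), but its transcript of 9655 nt is long, and with the offset the difference was -0.13 (adjusted p = 0.442). BMP2 against vehicle was 0.37 (adjusted p = 0.0859), and 0.44 with the offset, where it was called (adjusted p = 0.0333). The difference between the ligands was called by both fits: BMP2 against TGFβ1 was 1.06 (SE 0.12, edgeR adjusted p = 3.28e-05), and 0.57 with the offset (adjusted p = 0.00176).

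Il6st (chr13, 112464070 to 112510086), which encodes gp130, had 115 and 125 CPM with vehicle, 85.4 and 97.3 with TGFβ1, and 103, 105 and 85.9 with BMP2. The vehicle libraries were the highest, and the TGFβ1 and BMP2 libraries overlapped. The fall with TGFβ1 was -0.39 (SE 0.14, edgeR adjusted p = 0.0324). It was not called without TGFβ1 replicate 1 (0.151), vehicle replicate 1 (0.0521) or vehicle replicate 2 (0.168), and with the length offset it turned to 0.14 (adjusted p = 0.409). For BMP2 against vehicle the value was -0.29 (adjusted p = 0.176).

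Osmr (chr15, 6813577 to 6874969), the oncostatin M receptor, was at 97.5 and 79.7 CPM with vehicle, 65.9 and 81.5 with TGFβ1, and 48.1, 68.8 and 70.1 with BMP2. Neither ligand gave a call against vehicle: the edgeR log2 fold change was -0.26 for TGFβ1 (adjusted p = 0.264), with 0.11 under the offset, and -0.51 for BMP2 (adjusted p = 0.0943). The BMP2 value passed the threshold when genes with few counts were kept in the fit (-0.49, adjusted p = 0.0104). BMP2 replicate 1 was the lowest of the 7 libraries.

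Il6ra (chr3, 89864059 to 89913196), the interleukin-6 receptor, was low, at 3.34 and 5.50 CPM with vehicle, 4.71 and 5.57 with TGFβ1, and 2.57, 2.52 and 2.26 with BMP2. All 3 BMP2 libraries were below all others, and the vehicle and TGFβ1 libraries overlapped. BMP2 against vehicle was -0.86 (edgeR adjusted p = 0.0751), with a ratio of summed counts of 0.546 and a counting interval of 0.388 to 0.768, and it passed the threshold with no filter on low counts (adjusted p = 0.049). TGFβ1 against vehicle was 0.20 (edgeR adjusted p = 0.539), and 0.67 with the length offset (adjusted p = 0.0583). BMP2 against TGFβ1 was -1.07 (SE 0.25, edgeR adjusted p = 0.00391), and -1.40 with the offset.

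Il11ra1 (chr4, 41699989 to 41769474), the IL-11 receptor alpha chain, was at 18.2 and 17.1 CPM with vehicle, 23.0 and 18.8 with TGFβ1, and 13.9, 10.1 and 13.2 with BMP2. The groups did not overlap, with BMP2 lowest and TGFβ1 highest. Neither comparison with vehicle was called by edgeR (0.25, adjusted p = 0.256 for TGFβ1, with -0.10 under the offset, and -0.50, adjusted p = 0.0890 for BMP2). BMP2 against TGFβ1 was -0.74 (SE 0.16, edgeR adjusted p = 0.00210), and with the offset -0.35, which was not called (adjusted p = 0.0588). These values are uncertain, because 46.3% of the 4690 distinct 50-base windows of the gene's transcripts also occur in the near-identical copy Gm13305 and 15.8% in Il11ra2. Il11ra2 had 0 counts in all 7 libraries, and the sources used here do not say how reads that map to several places were counted.

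Socs3 (chr11, 117966079 to 117970047), the feedback inhibitor of gp130 signalling, was at 4.81 and 7.54 CPM with vehicle, 29.0 and 31.8 with TGFβ1, and 9.35, 6.89 and 7.24 with BMP2. The TGFβ1 libraries were separate from all others, and the BMP2 libraries overlapped the vehicle range. TGFβ1 raised Socs3 by 2.29 on the log2 scale (SE 0.22, edgeR adjusted p = 9.02e-06), and by 2.02 with the length offset. BMP2 against vehicle was 0.34 with a 95% interval of -0.15 to 0.84 (edgeR adjusted p = 0.380). The direct comparison of BMP2 with TGFβ1 gave -1.94 (SE 0.18, edgeR adjusted p = 5.34e-06), with -1.63 under the offset.

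Between the ligands, 7 of the 9 tested genes were called: Lifr and Clcf1 were higher with BMP2, and Il11, Lif, Socs3, Il6ra and Il11ra1 were higher with TGFβ1. Over all genes 61.4% were called in this comparison, 28.1% higher with BMP2 and 33.3% lower, a share to set beside that among these genes. The dose of each ligand was different, 5 ng/ml for TGFβ1 and 100 ng/ml for BMP2. With the length offset 8 were called, against 55.6% of all genes. The Clcf1 difference was 0.41 (SE 0.16, edgeR adjusted p = 0.0468). It was lost with DESeq2 (adjusted p = 0.111) and in edgeR without BMP2 replicate 1 (0.140), BMP2 replicate 2 (0.0721), TGFβ1 replicate 1 (0.0746), TGFβ1 replicate 3 (0.207) or vehicle replicate 2 (0.0602), and with the length offset it was 0.78 (adjusted p = 8.28e-04). Il6st and Osmr were not called (0.10 and -0.24, edgeR), and with the offset both were lower with BMP2, at -0.33 (adjusted p = 0.0375) and -0.57 (adjusted p = 0.00922).

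The levels of different genes were compared as CPM per kilobase of the deposited gene length. In vehicle the order of the level per kilobase was Il6st (10.8 ± 0.612 SD, n = 2), Osmr (7.31), Il11ra1 (3.95), Lifr (2.58), Clcf1 (2.44), Socs3 (2.14), Il6ra (0.512), Il11 (0.152), Lif (0.104) and Il6 (0). The ranges of Lifr and Clcf1, of Clcf1 and Socs3 and of Il11 and Lif overlapped, so those neighbours were not separated by their spread. In vehicle the 3 highest genes were thus receptor chains, and the ligand genes Il11, Lif and Il6 were the 3 lowest.

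In the TGFβ1 libraries the level of Il11 per kilobase was 48.5 ± 1.04 (SD, n = 2), the highest of the 10 genes, followed by Socs3 (10.5), Il6st (8.23), Osmr (6.08), Il11ra1 (4.68), Clcf1 (2.86), Lif (1.98), Lifr (1.59) and Il6ra (0.595), and no neighbours overlapped. Per kilobase, Il11 stood at 9.56 and 11.4 times Il11ra1 in the TGFβ1 libraries, against 0.0163 and 0.0622 times in the vehicle libraries and 0.219 to 0.468 times with BMP2. The ratio of Lif to Lifr per kilobase was 1.32 and 1.17 with TGFβ1 and 0.0625 and 0.0204 with vehicle. Corrected by the length offset, the ratio of Il11 to Il11ra1 in the TGFβ1 libraries was 10.8 and 12.9, while that of Lif to Lifr was 0.911 and 0.808. Il11 thus passed its receptor gene in both TGFβ1 libraries with and without the offset and in no vehicle or BMP2 library, whereas Lif passed Lifr only without the offset. With BMP2 the order per kilobase was Il6st (8.83), Osmr (5.15), Clcf1 (3.80), Lifr (3.32), Il11ra1 (2.77), Socs3 (2.71), Il11 (0.859), Il6ra (0.283) and Lif (0.0771), and Osmr and Clcf1, Clcf1 and Lifr, and Il11ra1 and Socs3 overlapped. With the longest annotated transcript as the length, Osmr rather than Il6st led in vehicle (16.1 against 13.8), and Il11 led in the TGFβ1 libraries as before (50.1). Il11ra1 was then at 8.02 in the TGFβ1 libraries, against 4.68 with the deposited length. The size of the ratio of Il11 to Il11ra1 therefore depends on the length used. The Il11ra1 level is also uncertain because of its near-identical copy Gm13305.

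**Figure D3:**
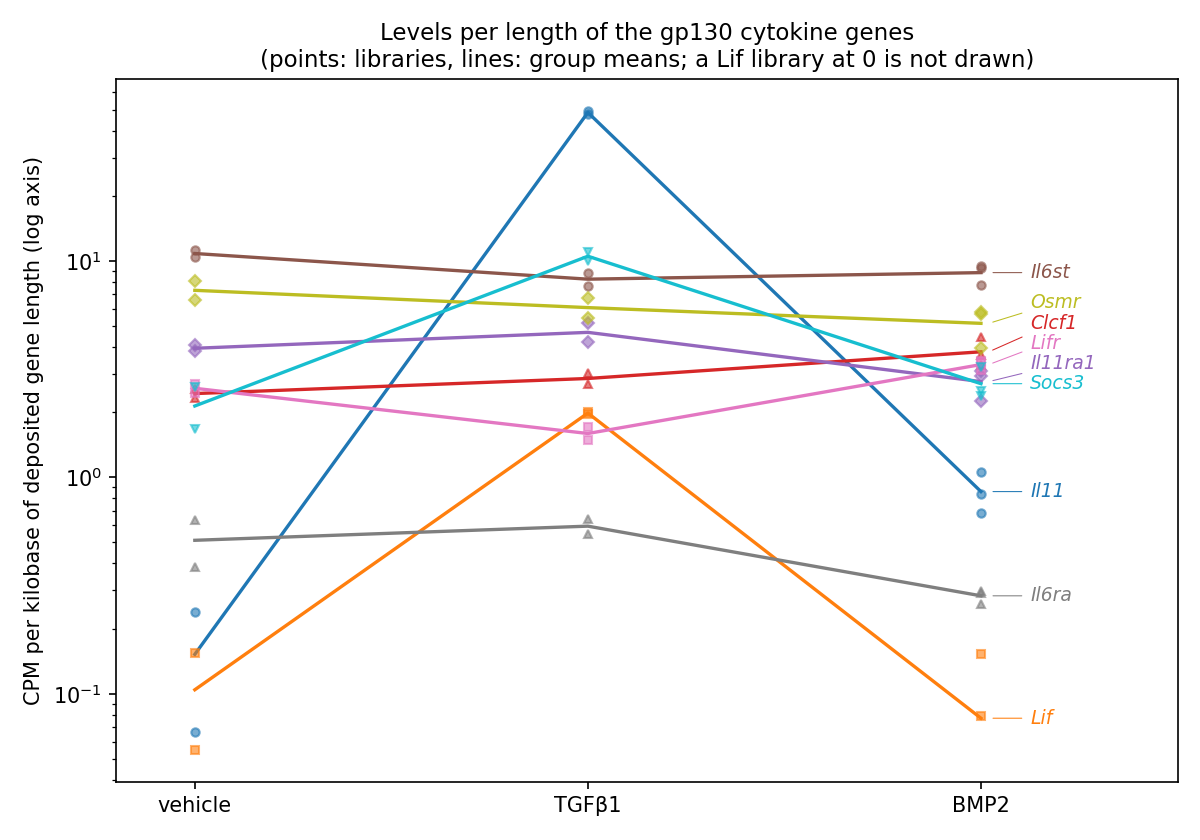
Level per kilobase of deposited gene length (log axis) of the 9 detected genes in the vehicle, TGFβ1 and BMP2 groups, with points for libraries and lines joining group means. Il11 moves from 0.152 with vehicle to 48.5 with TGFβ1, above Il6st at 8.23.

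The genes whose pattern over the 7 libraries was nearest to that of Il11, by the root mean square difference of log2 CPM centred on each gene's mean, were Fxyd2 (0.590), Cda (0.672), Gm14005 (0.869), 2010300F17Rik (0.873) and Npy (0.892). In TGFβ1 against vehicle the log2 fold changes were 8.20 for Fxyd2, a regulator of the sodium pump, 7.88 for Cda, the cytidine deaminase gene, 6.27 for Gm14005, 7.89 for 2010300F17Rik and 6.84 for Npy, the neuropeptide Y gene. With the length offset they were 4.95, 5.11, 6.18, 7.95 and 3.77 in the same order, so 2010300F17Rik and Gm14005, like Il11 at 8.04, changed little under it, and Fxyd2 was at 7.65 with the longest transcript. Nearest to Lif were Gm19705 (0.394), Cd200r3 (0.652), C230035I16Rik (0.657), Chrna1os (0.657) and Gm16006 (0.688). Their log2 fold changes with TGFβ1 were 4.09, 3.19, 3.21, 3.57 and 3.23 in that order. With the length offset they were 0.99, 3.48, 0.38, 0.70 and 0.21, beside 4.27 for Lif, so of these only Cd200r3 kept its size. The pattern of Socs3 lay nearest to Dnajc8 (0.122), Parp2 (0.142), Ttc1 (0.149), Olfml3 (0.160) and Snrpb2 (0.165), whose log2 fold changes with TGFβ1 ran from 2.03 for Snrpb2 to 2.68 for Olfml3, and with the offset from 1.82 for Dnajc8 to 2.86 for Olfml3.

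The rest of the family was read from lists of pathway genes. Of 4 further receptor genes 0 had enough counts to be tested. Cntfr, 1 of them and named after its values were seen, had 5 and 1 counts with vehicle. It had 1 and 1 with TGFβ1, and 0, 4 and 3 with BMP2. Among the further ligand genes, Ctf1 (cardiotrophin 1), which also signals through the LIF receptor and gp130, was not called for TGFβ1 (-0.20, edgeR) and was lower with the offset (-0.88, adjusted p = 0.0107). Of the 2 sheddases that can release cytokine receptors, Adam10 was lower with TGFβ1 (-0.53) and not called with the offset (-0.18) or in edgeR without TGFβ1 replicate 1 or vehicle replicate 2 (adjusted p up to 0.0956).

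Of the 12 signal transduction genes, TGFβ1 lowered 2 and BMP2 lowered 4, and neither raised any, with 0 higher in edgeR, in DESeq2 and at an unadjusted p under 0.05. Over all tested genes 25.8% were lower with TGFβ1 and 6.15% with BMP2, and 30.4% and 5.33% were higher in edgeR. DESeq2 called 3644 and 643 of the 13367 genes higher, and no share was taken at the unadjusted level. The median log2 fold changes of the list were -0.227 and -0.138, beside -0.02 and 0 over all tested genes. Jak1, a kinase bound to gp130, fell with TGFβ1 (-0.85, edgeR adjusted p = 4.14e-04, and -0.53 with the offset), as did the adaptor gene Shc1 (-0.49, and -0.56 with the offset). With BMP2 the falls were those of Gab1, an adaptor (-1.01, edgeR adjusted p = 0.00423), Stat5b (-0.59), Jak1 (-0.48) and Shc1 (-0.48). Of these only Gab1 was called in edgeR whichever library was left out, and the others were lost without either vehicle library. Stat3 itself, named after its values were seen, was not called with either ligand (-0.05 and 0.13).

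Of the 10 tested negative regulators other than Socs3, TGFβ1 lowered 6, with a median log2 fold change of -0.576, and raised 0 in edgeR, in DESeq2 and at an unadjusted p under 0.05. Over all tested genes 25.8% were lower and 30.4% higher in edgeR, and DESeq2 called 3644 of the 13367 genes higher. No share was taken at the unadjusted level. With the length offset 2 were lower and the median was -0.205. Of all 13367 genes, 3138 were then called lower, and 48.7% were called in either direction. Socs2, a brake on growth hormone and cytokine signalling, was at 38.9 and 36.7 CPM with vehicle, 14.05 in both TGFβ1 libraries, and 27.5, 34.1 and 33.2 with BMP2, and it fell by 1.43 on the log2 scale with TGFβ1 (SE 0.14, edgeR adjusted p = 1.41e-05), with -1.37 under the offset. This is the opposite direction to Socs3. Socs4 fell by 0.82, the STAT inhibitor gene Pias1 by 0.62 and the phosphatase gene Ptpn2 by 0.64, and the offset values were -0.15, -0.22 and -0.43. BMP2 lowered 1 of the 10, beside 6.15% of all genes, Socs5 (-0.45, edgeR adjusted p = 0.0434), a call lost without any 1 of the 5 vehicle and BMP2 libraries.

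Of 17 genes known as STAT3 targets, all tested, TGFβ1 raised 11 and lowered 4, with a median log2 fold change of 1.44. With the length offset on the principal transcript 8 were higher, 6 lower, and the median was 0.189, and on the longest transcript 11 were higher, 4 lower, and the median was 0.838. Over all genes 30.4% were called higher and 25.8% lower. With the first offset 48.7% were called in either direction, 3369 of the 13367 genes higher and 3138 lower. With the longest transcript 3423 were higher and 3172 lower. Timp1, an inhibitor of matrix metalloproteinases, rose by 4.20, and by 1.68 with the offset. Junb, an AP-1 subunit gene, rose by 2.63 (2.39 with the offset), Saa3, an acute phase gene, by 3.28 (0.19 with the offset, and 3.11 with the longest transcript), and Myc fell by 1.68 (-2.42 with the offset). The targets therefore did not move as 1 group. Among targets named after their values were seen, Pim1 (2.74, and 2.54 with the offset), Bcl3 (2.08 and 1.86) and Il4ra (3.49 and 3.57) were higher with TGFβ1 by both fits, Cebpb (-1.26 and -1.10) was lower by both, and Lcn2 went from 1.58 to -0.89, and to 0.77 with the longest transcript.

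BMP2 raised 3 of the 17 targets and lowered 1, with a median of 0.173, where 5.33% of all genes were higher and 6.15% lower. They were Junb (2.43), Vegfa (1.05), Cebpd (0.66) and, lower, the cyclin gene Ccnd1 (-0.74). The Cebpd call was lost in edgeR without BMP2 replicate 3 or either vehicle library (adjusted p up to 0.200). Junb therefore rose with both ligands, whereas Socs3, another STAT3 target, was called with TGFβ1 and not with BMP2, and the direct comparison of the ligands called Socs3.

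**Figure D4:**
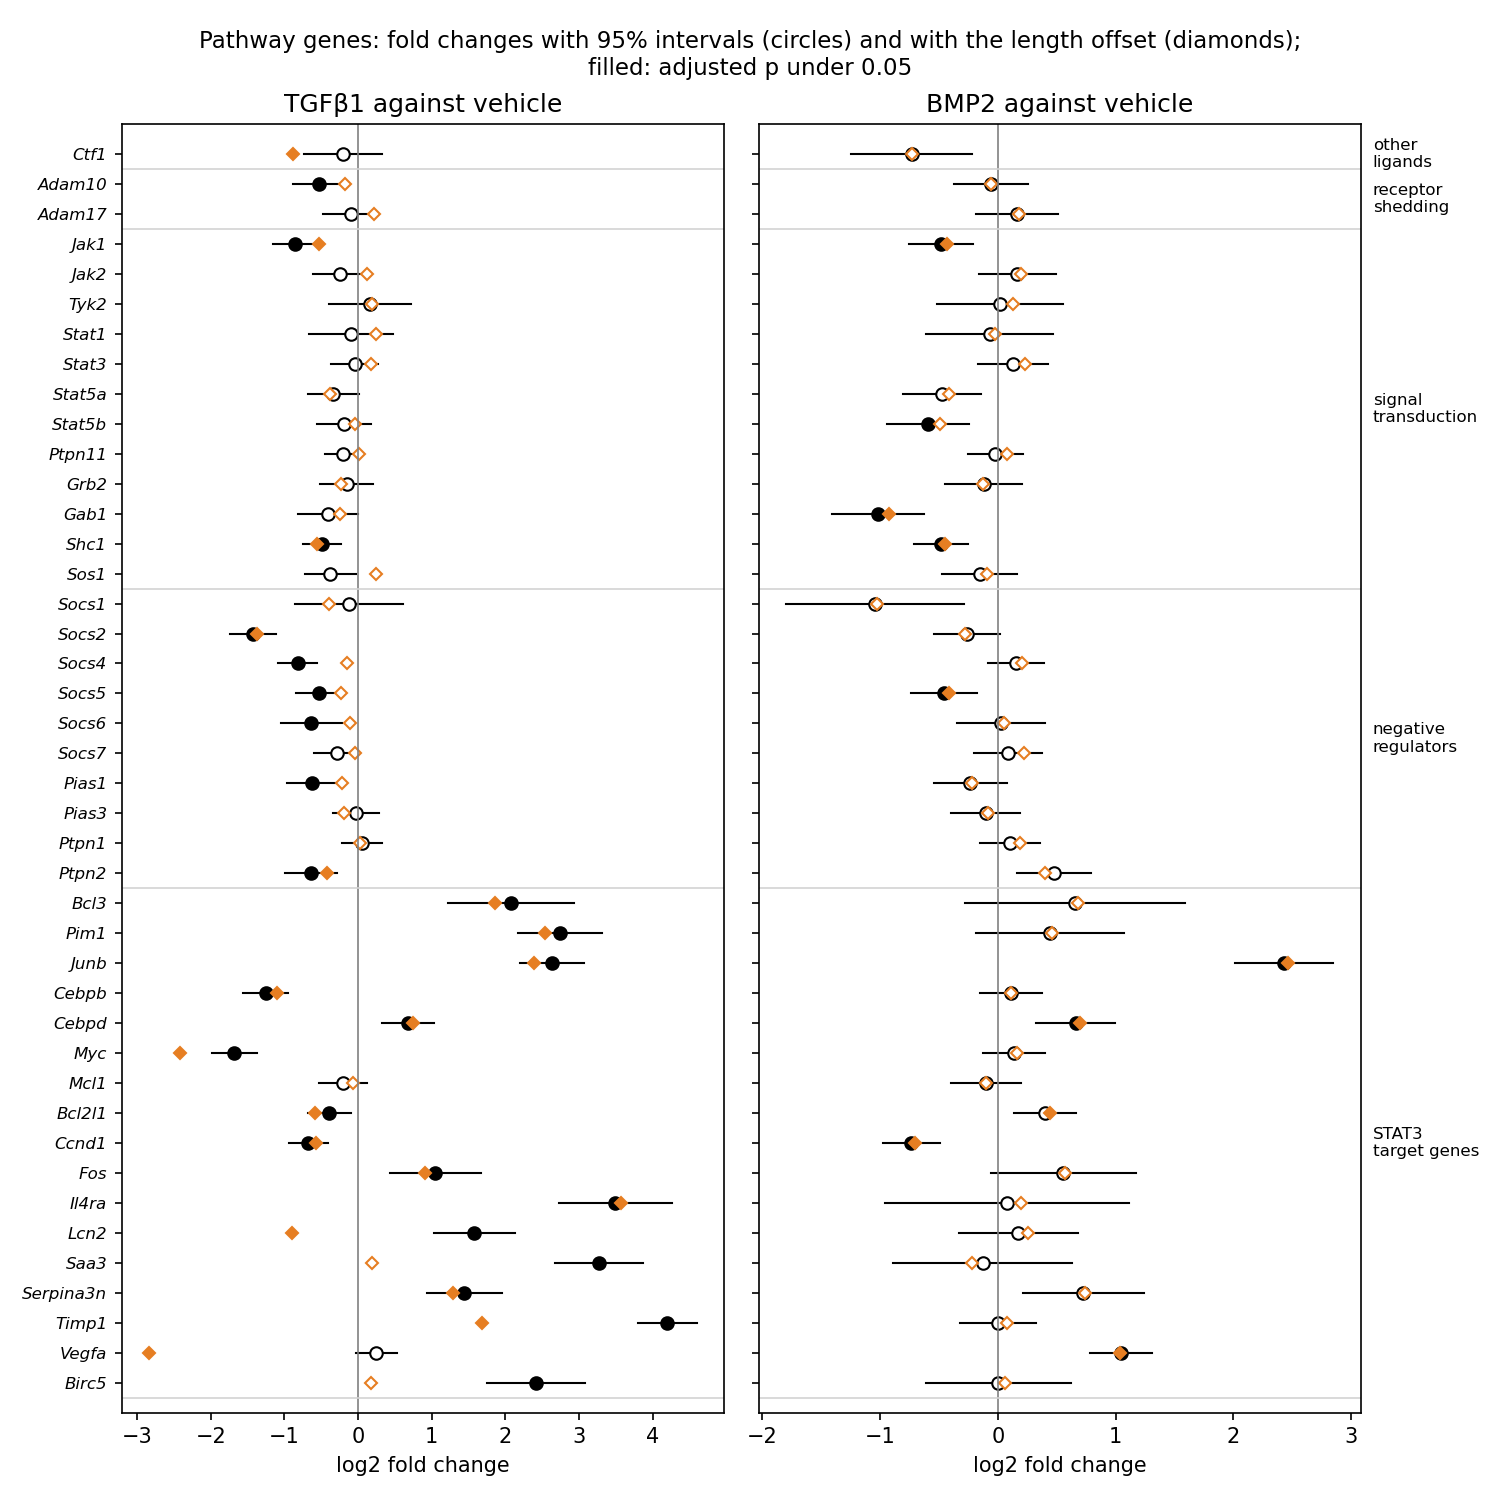
Log2 fold change of the tested pathway genes by list for TGFβ1 against vehicle and BMP2 against vehicle, with circles and 95% intervals from edgeR and diamonds with the length offset, filled where the adjusted p was under 0.05. Junb lies to the right in both panels, and 6 negative regulators have filled circles to the left with TGFβ1 but 2 have filled diamonds.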

How the data were processed

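The authors deposited 1 table of whole-number counts by gene name and library, with a gene length in bases. The tools named in the submitters' processing notes, with no order, are STAR 2.4.2a, cutadapt, featureCounts, Subread and DESeq2, and the build is mm10. No source used here gives the annotation, the strand setting or the counting of multi-mapped reads, so values of overlapping and antisense genes are uncertain.

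The test was the quasi-likelihood F test of edgeR 4.0.16 (R 4.3.3) after filterByExpr and TMM scaling. All 7 libraries entered a single model with group means, which left 4 residual degrees of freedom and a common biological coefficient of variation of 0.133. P-values are 2-sided and were Benjamini-Hochberg adjusted across the 13367 genes kept, with calls at an adjusted p under 0.05. On simulated counts with 200 changed genes, TGFβ1 against vehicle recovered 68% of genes changed by 1 and 91% of those changed by 2 on the log2 scale. For BMP2 against vehicle the values were 69% and 93%. In these runs 20 and 13 unchanged genes were also called. The simulated counts held no length trend and fewer changed genes than were called in the data, so these rates may differ there. Ratios of summed counts have exact conditional binomial (Clopper-Pearson) 95% intervals, and a count of 0 is given as up to 3 counts.

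The length offset entered per-library lowess trends on principal transcript length (span 0.15) and GC content (span 0.3, 3 iterations), from the GENCODE annotation of mm10, into the same fit. Of the tested genes 98.97% had a length. Levels per length used the deposited gene length.

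The genes and the lists were chosen with earlier results of these data known. The rule for naming took all 10 genes, up to 4 called genes per list and comparison with the smallest p, Col2a1 and Acan as cell type markers, and the 5 genes nearest to Il11, Lif and Socs3. 1 gene of the lists is not reported here. The alternatives were DESeq2 1.42.0, edgeR with the size factors of DESeq2, a fit without the count filter, fits of only the libraries compared, a replicate block, the length offset, another transcript length, and each library left out. The offset with the longest transcript, and the ligand to receptor ratios scaled by the change that the offset makes to both fold changes, were chosen after seeing the data.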

Additional observations from a re-analysis of the deposited data

How the results depend on the processing

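With 2 or 3 libraries a group, the BMP2 calls among these genes were the least settled: the 2 calls became 1 with DESeq2, 4 with no filter, 1 with the replicate block and 0 to 2 when a library was left out. For TGFβ1 the 5 calls became 3 with either length offset, where the falls of Lifr and Il6st were not called, and 4 with the block, where that of Il6st was not (-0.31, edgeR adjusted p = 0.230). Of 951 repeats of 68 single-gene results, 861 kept their direction and their side of the threshold. The rises of Il11, Lif and Socs3 with TGFβ1 kept theirs in each repeat, with log2 fold changes of 7.59 to 9.39, 3.66 to 5.06 and 1.96 to 2.65 when a library was left out.

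For BMP2 against vehicle, the 4 signal transduction calls became 2 with DESeq2, 1 with the block and 1 to 4 with a library left out. The 1 negative regulator call became 0 with DESeq2, its size factors or the block, 2 with no filter or only the libraries compared, and 0 to 2 with a library left out. For BMP2 against TGFβ1, 4 of the 12 signal transduction genes were called (2 higher and 2 lower with BMP2). Of the 10 tested negative regulators 7 were called (6 higher and 1 lower with BMP2). Over all genes 61.4% were called in this comparison, and 55.6% with the length offset. The 4 signal transduction calls became 2 with the block or either offset and 1 to 3 with a library left out. The 7 negative regulator calls became 4 with DESeq2 or the block, 3 with either offset and 4 to 7 with a library left out. For TGFβ1 against vehicle, the 6 negative regulator calls became 2 with either offset, and the 2 signal transduction calls ranged from 2 to 4 with a library left out. With the longest transcript as the length, 2, 3 and 5 genes changed rank by level in vehicle, TGFβ1 and BMP2. The cause of these changes was not tested.

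The sign turned with the principal-transcript and longest-transcript offsets for TGFβ1 against vehicle in Il11ra1 (-0.10, -0.080), Il6st (0.14, 0.14), Osmr (0.11, 0.081) and Stat3 (0.18, 0.15), and for BMP2 against TGFβ1 in Il6st (-0.33, -0.33). The first offset alone turned Clcf1 (-0.093), Lcn2 (-0.89) and Vegfa (-2.84). Left-out libraries turned Lif with BMP2 (-1.25 to 0.33), Il6ra with TGFβ1 (-0.14 to 0.62) and Stat3 with TGFβ1 (-0.16 to 0.067). Each of these values was short of the threshold in edgeR before the change except for Il6st and Lcn2 with TGFβ1.

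The replicate numbers pair no groups by the labels, and each comparison shares fewer than 3 numbers. With the number as a block, leaving 2 residual degrees of freedom, edgeR called 3496 genes higher and 2590 lower for TGFβ1, and 354 and 417 for BMP2 against vehicle, where the fit without it called 4067 and 3450, and 713 and 822. Same-numbered libraries had correlations of deviations from -0.294 to -0.035, and libraries of different numbers from -0.249 to 0.294. In a group of 2 libraries the deviations mirror each other, so these values cannot decide whether numbers pair. The block also ended the Clcf1 calls of BMP2 against vehicle and against TGFβ1 (edgeR adjusted p = 0.0632 and 0.0673) and those of Jak1, Shc1, Stat5b, Socs5 and Cebpd with BMP2. Lif with BMP2 could not be tested in a fit of only the libraries compared.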
